A study of Vitis vinifera with 6 samples.

Results

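Cinnamate 4-hydroxylase (C4H) and 4-coumarate:CoA ligase (4CL) were followed in grapevine leaves as 7 genes, 3 of C4H and 4 of 4CL, out of 34369 genes represented on the array. The 7 genes were taken by their locus identifiers, and each had 1 probe. The C4H genes were C4H (VIT_06s0004g08150), C4H2 (VIT_11s0065g00350) and C4H3 (VIT_11s0078g00290). The 4CL genes were 4CL-2 (VIT_11s0052g01090), 4CL-3 (VIT_16s0039g02040), 4CL13 (VIT_16s0050g00390) and 4CL6 (VIT_06s0061g00450). Names are those the study used, and the RefSeq gene table consulted here matched 0 of the 7 identifiers, so that no genome position or sequence is given.

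The study asked which genes respond when NAC61, a NAC family transcription factor gene, is overexpressed transiently in leaves. Micropropagated plantlets of Vitis vinifera cv. Thompson Seedless, 6 weeks old at infiltration per the labels and slightly younger per the study's methods, were vacuum infiltrated with Agrobacterium tumefaciens C58C1. In the OX.NAC61 group the bacteria carried 35S:NAC61, and in the control group they carried the pK7WG2 vector with a non-coding sequence, so both groups had been exposed to Agrobacterium. Leaves were collected 7 days after infiltration, and RNA of 3 control and 3 OX.NAC61 plants was hybridised to 1-colour Agilent arrays. The constitutive 35S promoter is not restricted to a leaf cell type, expression is transient and each array represents a plant of its own. The OX.NAC61 plants were the 3 with the highest NAC61 expression among 7 infiltrated, and the controls were 3 of 5.

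C4H and 4CL are consecutive enzymes of the general phenylpropanoid pathway. Phenylalanine ammonia-lyase (PAL) makes cinnamate from phenylalanine, C4H, a cytochrome P450, hydroxylates cinnamate to p-coumarate, and 4CL joins p-coumarate to coenzyme A. The p-coumaroyl-CoA formed is the common substrate of the lignin branch, of chalcone synthase, which opens flavonoid synthesis, and of stilbene synthase, which makes resveratrol, the defence compound for which grapevine is well known.

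Levels are given as the log2 processed signal of a probe minus the 75th percentile of that signal on the same array (scaled log2 level), so that 0 marks the 75th percentile. Before scaling, that percentile ranged from 889 to 1613 in control leaves and from 1772 to 2569 in OX.NAC61 leaves, so all OX.NAC61 arrays were brighter. Day 1 of scanning held the 3 controls with OX.NAC61 replicate 1, and day 2 held only OX.NAC61 replicates 2 and 3. NAC61 itself (VIT_08s0007g07640) had a log2 fold change of 1.62 (SE 0.21, limma adjusted p = 0.0285), which checks the labels only. That call was lost without control replicate 2 (limma adjusted p = 0.125) or control replicate 3 (0.105), with scan day (log2 fold change 1.23, adjusted p = 0.198) or the recorded slide (adjusted p = 0.104) as a block, and with normexp (0.88, adjusted p = 0.256). All 8 leaf photosynthesis genes used to check the tissue were well above background on all 6 arrays. Their median log2 fold change was -1.004, and 7 of the 8 were called lower, as were 3.72% of all tested features. The number was 3 without control replicate 1, beside 3.81% of all features called in either direction. It was 0 with control replicate 2, control replicate 3, OX.NAC61 replicate 2 or OX.NAC61 replicate 3 left out, and 0 with scan day or the recorded slide as a block. In the order given, the fits without an array called 0.262%, 0.813%, 2.61% and 1.21% of all features, and the recorded slide 2.18%. All photosynthesis genes but the Rubisco small subunit gene had been picked from the study's own list of changed genes, so their direction is not independent evidence. The Rubisco small subunit gene was the 1 not called and was dim. Its scaled log2 levels were -4.33, -4.57 and -4.41 in control leaves and -4.83, -5.09 and -5.52 in OX.NAC61 leaves. Whether leaf condition or brightness had a part in the responses described here was not tested.

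None of the 7 genes was called different between OX.NAC61 and control leaves, where a call needs a difference of more than 1.5-fold at a limma adjusted p below 0.1. By the same rule 1843 of 27052 tested features were called, 6.81% of them. The unadjusted limma p was below 0.05 for 2 of the 7 genes and for 20.4% of all tested features. Of the 7, C4H2 and C4H3 had the larger differences, 2.90-fold and 3.10-fold higher in OX.NAC61, and lay just outside the threshold. C4H and all 4 of the 4CL genes had log2 fold changes between -0.03 and 0.24. All 7 passed the filter on dim probes, were well above background on all 6 arrays and were saturated on none. In leaf RNA of this kind, fewer cells expressing a gene and less RNA per cell cannot be told apart.

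**Figure D1:**
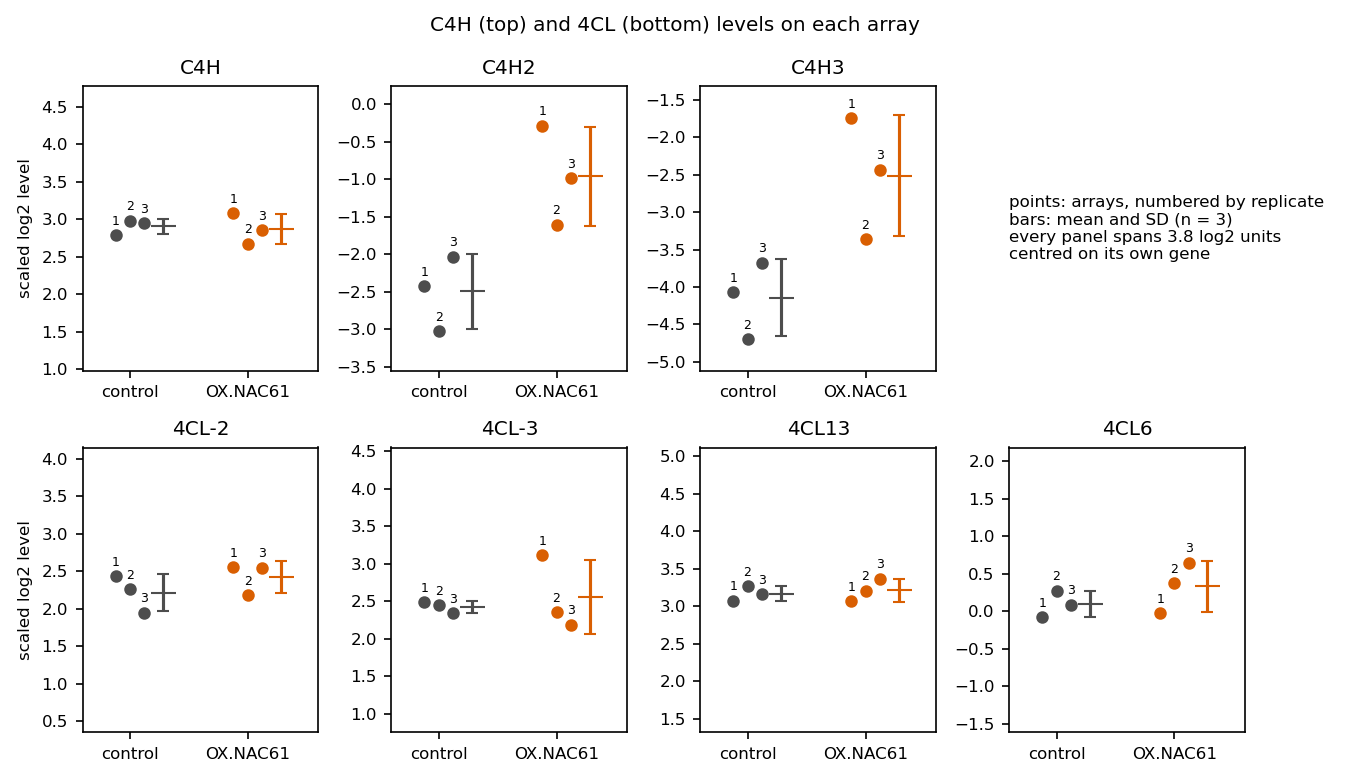
Scaled log2 level (y axis, log2 units) of each C4H and 4CL gene on the 3 control and 3 OX.NAC61 arrays, with points numbered by replicate and bars giving the mean and SD (n = 3). The groups are separate for C4H2 and C4H3 and overlap for the other 5 genes.

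C4H (VIT_06s0004g08150) had scaled log2 levels of 2.79, 2.98 and 2.95 in control leaves and of 3.09, 2.67 and 2.86 in OX.NAC61 leaves. OX.NAC61 replicate 1 was the highest of the 6 arrays and OX.NAC61 replicate 2 the lowest, so the OX.NAC61 group enclosed the whole control group. The control mean was 2.91 ± 0.10 (SD, n = 3) and the OX.NAC61 mean 2.87 ± 0.21 (SD, n = 3). The log2 fold change was -0.03 (SE 0.16, limma adjusted p = 0.933), with a 95% interval from -0.42 to 0.35. The sign of so small a value was not stable, turning positive after quantile normalisation (0.04), with scan day as a block (0.18), and without control replicate 2 (0.004) or OX.NAC61 replicate 2 (0.07).

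C4H2 (VIT_11s0065g00350) encodes an enzyme annotated as trans-cinnamate 4-monooxygenase, another name for C4H. Its scaled log2 levels were -2.43, -3.03 and -2.04 in control leaves and -0.29, -1.61 and -0.99 in OX.NAC61 leaves. All OX.NAC61 arrays were above all control arrays, with OX.NAC61 replicate 1 the highest and control replicate 2 the lowest. Before scaling, its processed signal ran from 163 to 1451, and the lowest raw signal was 8.98 times the local background. The control mean was -2.50 ± 0.50 (SD, n = 3) and the OX.NAC61 mean -0.96 ± 0.66 (SD, n = 3), a log2 fold change of 1.53 (SE 0.40, 95% interval 0.58 to 2.49). The limma adjusted p was 0.102, against a threshold of 0.1. The two-sided exact permutation p for C4H2 alone was 0.1, the smallest that 3 arrays against 3 can give.

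C4H3 (VIT_11s0078g00290) was measured by a dimmer probe. Its scaled log2 levels were -4.07, -4.69 and -3.68 in control leaves and -1.75, -3.36 and -2.43 in OX.NAC61 leaves. The groups were again apart, and the 6 arrays fell in the same order as for C4H2. The processed signal ran from 51.4 to 528, the lowest raw signal being 3.39 times the local background. Mean levels were -4.15 ± 0.51 (SD, n = 3) in control and -2.51 ± 0.81 (SD, n = 3) in OX.NAC61, a log2 fold change of 1.63 (SE 0.45, 95% interval 0.54 to 2.73, limma adjusted p = 0.120). The exact permutation p, two-sided, was again 0.1. Among all tested features, 9.88% had every OX.NAC61 array above every control array, as C4H2 and C4H3 did, and 16.2% had every OX.NAC61 array below.

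The calls for C4H2 and C4H3 depended on the processing. C4H2 was called higher after quantile normalisation (1.55, limma adjusted p = 0.0985), after scaling to the array median (1.55, adjusted p = 0.0690) and with the deposited log2 values (1.11, adjusted p = 0.0977). These settings called 6.23%, 6.48% and 4.42% of all tested features. C4H3 was called after scaling to the median (1.65, limma adjusted p = 0.0833) but not with the deposited values, where its log2 fold change was 0.73 (adjusted p = 0.166). Keeping only features well above background on all 6 arrays, or fitting eBayes with trend and robust, called both genes, beside 7.61% and 8.17% of all features. With normexp background correction the median of all features moved to -0.50, and no feature was called. C4H2 then stood at 0.79 and C4H3 at -0.003. Normexp followed by quantile normalisation, chosen after seeing the data, called 5.67% of features and gave 1.18 for C4H2 (limma adjusted p = 0.0652) and 0.97 for C4H3 (adjusted p = 0.112).

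Scan day and group overlapped, because day 2 held no control array. With scan day as a block only OX.NAC61 replicate 1 is set against the controls, and the estimate was 2.21 for C4H2 (limma adjusted p = 0.239) and 2.40 for C4H3 (adjusted p = 0.257). Without OX.NAC61 replicate 1, the highest array for both genes, the log2 fold changes were 1.20 and 1.25 (limma adjusted p = 0.122 and 0.146). Without OX.NAC61 replicate 2, the lowest of its group, they were 1.86 and 2.06, and C4H3 alone of the 7 was called (limma adjusted p = 0.0931), beside 2.61% of all features. C4H2 stayed above 0 in all 21 alternatives and C4H3 in 20 of 21, but many of these could not change the sign. Those that changed only the filter, the variance model, a threshold or the replicate block repeat the reported estimate. With all OX.NAC61 arrays above all control arrays, leaving out an array or blocking on scan day could not turn it either.

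**Figure D2:**
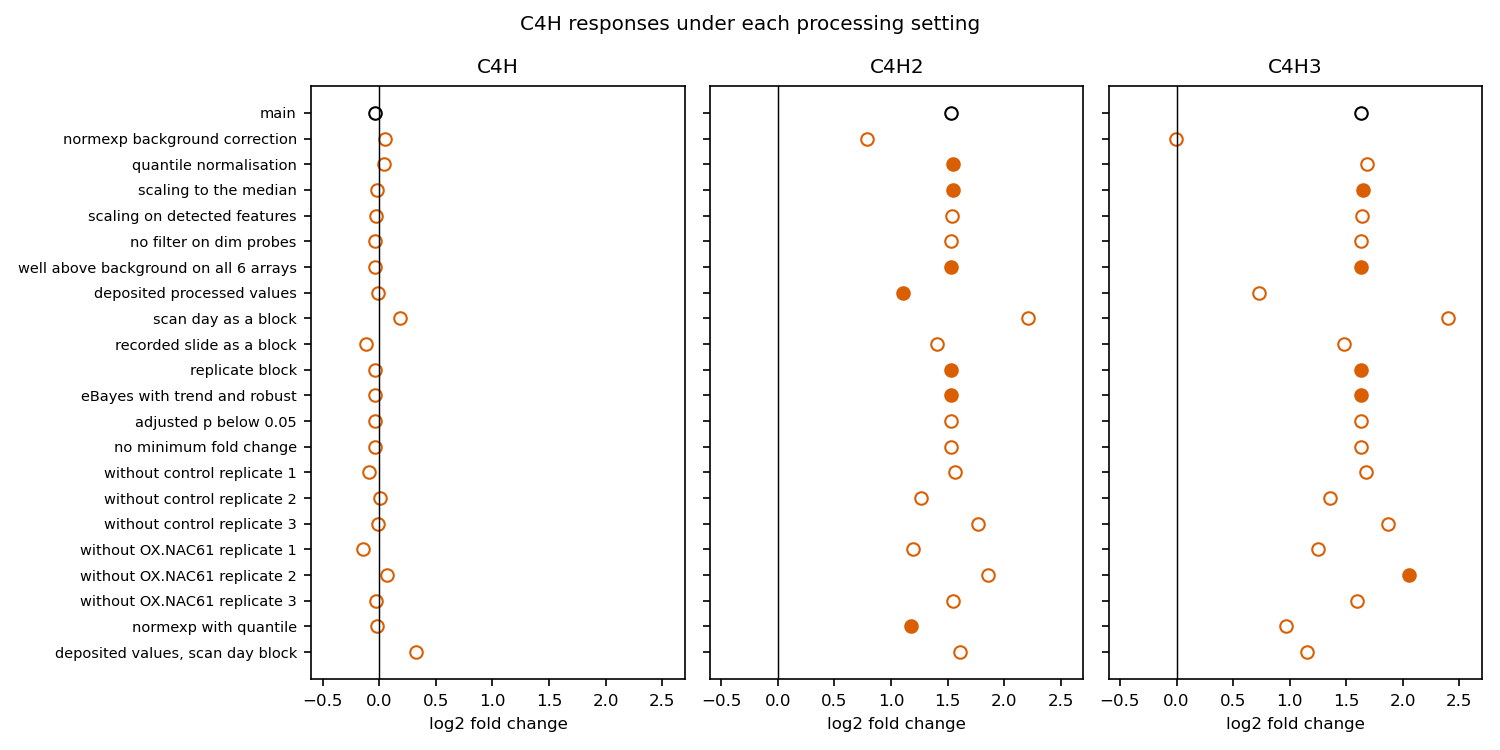
Log2 fold change (x axis, OX.NAC61 over control) of C4H, C4H2 and C4H3 under the reported processing (top row) and 21 alternatives. Filled points are called by limma and open points are not, so C4H lies near 0 throughout, while C4H2 and C4H3 cross the calling threshold in some settings.

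Whether the C4H genes responded unlike each other was examined within each array, as the difference between a pair of genes' scaled log2 levels. Over the 3 C4H and 6 4CL pairs, 9 pairs were compared with the two-sided exact permutation test, whose smallest possible p is 0.1. The 95% intervals of the differences are t intervals and do not come from that test. The response of C4H was lower than that of C4H2 by a log2 difference of -1.57 (95% interval -2.70 to -0.44, exact p = 0.1, adjusted p = 0.45). Against C4H3 the difference was -1.67 (95% interval -2.98 to -0.35, exact p = 0.1, adjusted p = 0.45). In both pairs the control and OX.NAC61 arrays did not overlap, but the design cannot reach a smaller p. C4H2 and C4H3 differed in response by -0.10 (95% interval -0.38 to 0.18, exact p = 0.4, adjusted p = 0.9), and their groups overlapped. Their levels followed each other over the 6 arrays (Pearson r = 0.997, a description over arrays that share 2 groups and a common scaling). No probe sequence was used here, and whether either probe detects the transcript of the other gene was not tested.

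Of the 4CL genes, 4CL-2 (VIT_11s0052g01090) had scaled log2 levels of 2.43, 2.25 and 1.95 in control leaves and of 2.55, 2.18 and 2.54 in OX.NAC61 leaves. OX.NAC61 replicates 1 and 3 were above every control array and OX.NAC61 replicate 2 lay among the controls. The log2 fold change was 0.21 (SE 0.19, 95% interval -0.25 to 0.67, limma adjusted p = 0.589). It was positive in all 21 alternatives, but those that changed only the filter, variance model, thresholds or replicate block repeat the reported estimate.

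4CL-3 (VIT_16s0039g02040) differed from the other 4CL genes by a single high array. Its scaled log2 levels were 2.49, 2.44 and 2.34 in control leaves and 3.11, 2.35 and 2.19 in OX.NAC61 leaves. OX.NAC61 replicate 1 was the highest of all and OX.NAC61 replicate 3 the lowest. The control SD was 0.07 and the OX.NAC61 SD 0.49 (n = 3 each). The log2 fold change was 0.13 (SE 0.26, 95% interval -0.49 to 0.75, limma adjusted p = 0.831), and without OX.NAC61 replicate 1 it was -0.15. With scan day as a block, which sets only OX.NAC61 replicate 1 against the controls, it was 0.69, or 0.82 with deposited values.

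4CL13 (VIT_16s0050g00390) had scaled log2 levels of 3.07, 3.27 and 3.16 in control leaves and of 3.07, 3.21 and 3.37 in OX.NAC61 leaves. The groups nearly coincided, with a log2 fold change of 0.05 (SE 0.14, 95% interval -0.30 to 0.40, limma adjusted p = 0.893). 4CL6 (VIT_06s0061g00450) had scaled log2 levels of -0.08, 0.27 and 0.09 in control leaves and of -0.03, 0.38 and 0.65 in OX.NAC61 leaves. OX.NAC61 replicates 2 and 3 were above every control array and OX.NAC61 replicate 1 lay among the controls. The log2 fold change of 4CL6 was 0.24 (SE 0.21, 95% interval -0.27 to 0.75, limma adjusted p = 0.583). With scan day as a block, both 4CL13 (-0.10) and 4CL6 (-0.12) turned negative.

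Among the 6 pairs of 4CL genes the differences in response lay between -0.19 and 0.17, with exact permutation p from 0.3 to 1 and adjusted p of 0.9 or 1. The intervals of these differences were wide. That of 4CL-3 against 4CL6 ran from -1.48 to 1.25, and the narrowest, of 4CL13 against 4CL6, from -0.52 to 0.14. As a description over the 6 arrays, 4CL13 and 4CL6 varied together (r = 0.95), and 4CL-3 varied against 4CL13 (r = -0.70) and 4CL6 (r = -0.64).

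**Figure D3:**
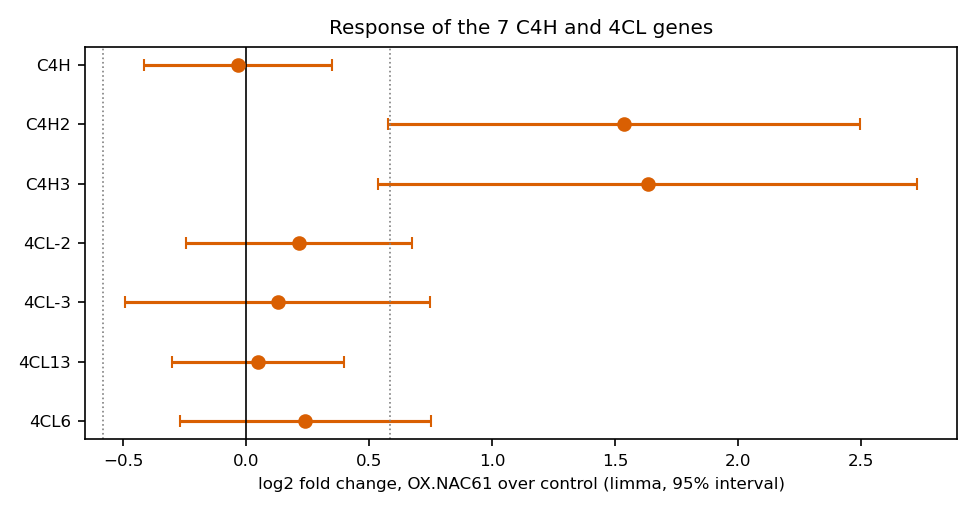
Log2 fold change of OX.NAC61 over control (x axis) for each of the 7 genes, with 95% intervals from the limma fit. Dotted lines mark a 1.5-fold change in either direction, and C4H2 (1.53) and C4H3 (1.63) are the only genes whose interval lies above 0.

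A further 7 loci annotated as 4CL were set beside these genes, of which 6 were tested. The locus named 4CL7 (VIT_08s0007g05050) did not stand well above background anywhere. None of the 6 was called in either direction, and their median log2 fold change was 0.01, against -0.05 over all tested features and 0.17 over the 4 named 4CL genes. The largest value was that of VIT_14s0171g00300, at 0.89 (SE 0.28, limma adjusted p = 0.152). Its scaled log2 levels were -3.95, -4.29 and -4.55 in control leaves and -3.28, -2.96 and -3.88 in OX.NAC61 leaves, without overlap.

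Upstream of C4H, 1 of 6 PAL genes was called higher and none lower, with a median log2 fold change of 0.47 over the list. In all features, 3.09% were called higher. Of these PAL genes, 4 came from the study's list of genes changed on these samples, so their direction is not independent evidence. The gene called was VIT_16s0039g01240, with scaled log2 levels of 1.12, 0.48 and 1.20 in control leaves and of 2.996, 1.71 and 2.99 in OX.NAC61 leaves. The log2 fold change was 1.63 (SE 0.40, limma adjusted p = 0.0923), the largest of the list. With the deposited values 4 PAL genes were called, beside 4.42% of all features. The call was lost without any array other than OX.NAC61 replicate 2, in fits that called between 0.262% and 11.9% of all features. No PAL gene was called with normexp, which called no feature. The same held without the filter on dim probes (3.9% of all features) and at an adjusted p below 0.05 (2.43%). With scan day as a block, which sets only OX.NAC61 replicate 1 against the controls, the PAL median was 0.75.

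In the lignin branch, which converts p-coumaroyl-CoA to monolignols, 14 of 17 genes were well above background on all 6 arrays. Of these, 3 were called higher, beside 3.09% of all tested features, and none lower. Their median log2 fold change was 0.56. Another 2 were well above background on no array. The remaining gene, the cinnamyl alcohol dehydrogenase gene VIT_12s0142g00710, passed the filter through the OX.NAC61 arrays alone, so it is left out of the count and the median and no fold change is given. COMT5 (VIT_02s0025g02920), a caffeic acid O-methyltransferase gene, had the largest log2 fold change, 2.44 (SE 0.37, limma adjusted p = 0.0359). It was dim, with scaled log2 levels of -5.04, -5.33 and -5.78 in control leaves and of -3.04, -3.56 and -2.24 in OX.NAC61 leaves. On each control array it was below C4H3. CCR8 (VIT_14s0066g01150), a cinnamoyl-CoA reductase gene, was at 1.29 (SE 0.32, limma adjusted p = 0.0954), and F5H1 (VIT_04s0023g02900), a ferulate 5-hydroxylase gene, at 1.08 (SE 0.26, limma adjusted p = 0.0870). None of the 14 was called without control replicate 2 or without control replicate 3, and 1 gene was called without control replicate 1 or without OX.NAC61 replicate 3. Those fits called 0.262%, 0.813%, 3.81% and 1.21% of all features. None of the 14 was called with normexp, which called no feature, or with the recorded slide as a block, which called 2.18%. With scan day as a block, which sets only OX.NAC61 replicate 1 against the controls, their median was 0.64.

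Of the enzymes that compete for the product of 4CL, 17 stilbene synthase (STS) genes were listed, a part of the larger family the study describes. All 17 had positive log2 fold changes, from 1.06 to 2.50 with a median of 1.41. In 14 every OX.NAC61 array lay above every control array, as in 9.88% of all tested features. Called higher were 4, beside 3.09% of all features: STS36 (VIT_16s0100g01100, log2 fold change 2.50, limma adjusted p = 0.0284), STS43 (VIT_16s0100g01150, 2.37, adjusted p = 0.0512), STS9 (VIT_16s0100g00770, 2.43, adjusted p = 0.0638) and STS37 (VIT_16s0100g01110, 2.05, adjusted p = 0.0694). Near-identical copies make up much of this family, and probes may not tell them apart, so the 17 values may not be separate measurements. The number called was 8 after scaling to the median, 9 with eBayes trend and robust, and 0 with normexp or with scan day as a block. Scaling to the median called 6.48% of all features, eBayes trend and robust 8.17%, and normexp none. Without OX.NAC61 replicate 2, 13 STS genes were called, beside 2.61% of all features. Without control replicate 1 the number was 2 (3.81% of all features), and without OX.NAC61 replicate 3 it was 1 (1.21%). The number was 0 without control replicate 2 (0.262%) or control replicate 3 (0.813%). The chalcone synthase genes were not called, with log2 fold changes of 0.65 for CHS2 (VIT_14s0068g00920, SE 0.57, limma adjusted p = 0.582) and 0.52 for CHS3 (VIT_05s0136g00260).

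**Figure D4:**
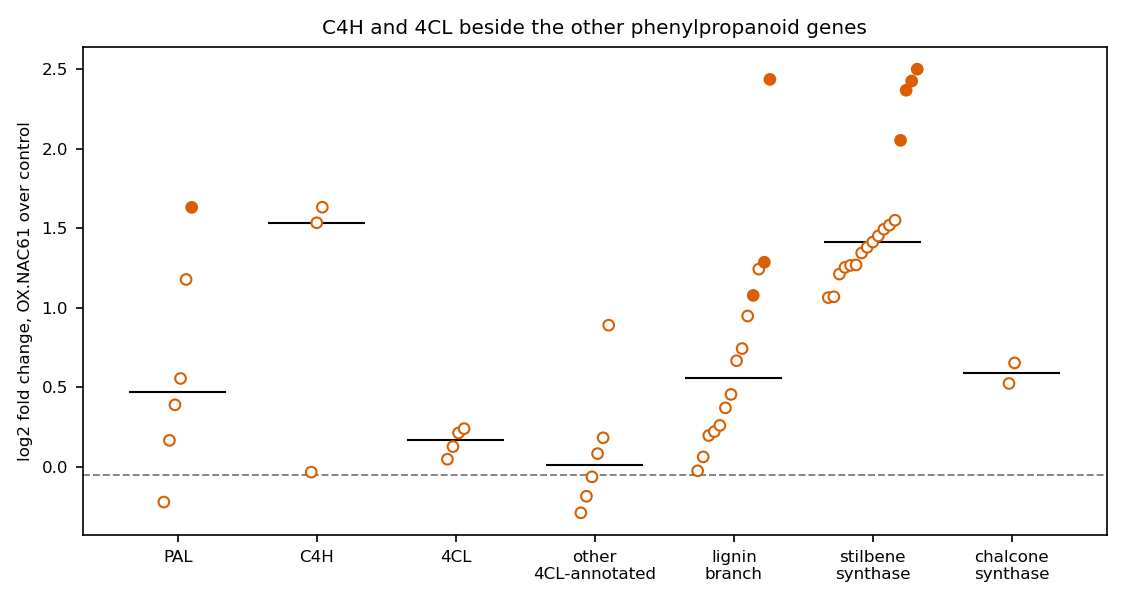
Log2 fold change of OX.NAC61 over control (y axis) for each gene of 7 phenylpropanoid lists that was well above background on all 6 arrays, with filled points for genes called by limma and black lines for list medians. The dashed line is the median of all tested features (-0.05), near which the 4CL genes and C4H lie, while C4H2 and C4H3 lie within the range of the stilbene synthases.

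Array by array, C4H2 and C4H3 had a pattern close to that of the stilbene synthases. Relative to the control mean, C4H2 was shifted by 2.21, 0.89 and 1.51 on OX.NAC61 replicates 1, 2 and 3, and C4H3 by 2.40, 0.78 and 1.71. The median shift of the 17 stilbene synthase genes on the same arrays was 2.09, 0.51 and 1.65, and that of the 6 PAL genes 0.75, 0.12 and 0.57. C4H was shifted by 0.18, -0.23 and -0.05. On control replicate 2, C4H2, C4H3 and the stilbene synthase median were all low, at -0.53, -0.55 and -0.49, while C4H was at 0.07. Over the 6 arrays C4H2 correlated with each of the 17 stilbene synthase genes at r from 0.87 to 0.98, and C4H3 at r from 0.86 to 0.99. For C4H the same correlations ran from -0.18 to 0.40, and for the 4CL genes from -0.15 (4CL13) to 0.75 (4CL-2). These are descriptions over 6 arrays that share 2 groups, and a common scaling can move all genes of an array together. Both C4H2 and C4H3 had r above 0.8 with 5 of 6 PAL genes and 5 of 14 lignin branch genes, and C4H, 4CL-2 and 4CL-3 with none of either list. 4CL13 and 4CL6 had such values with no PAL gene and with 2 of the 14 lignin branch genes each. With the leaf photosynthesis genes C4H2 correlated at r from -0.77 to -0.61.

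**Figure D5:**
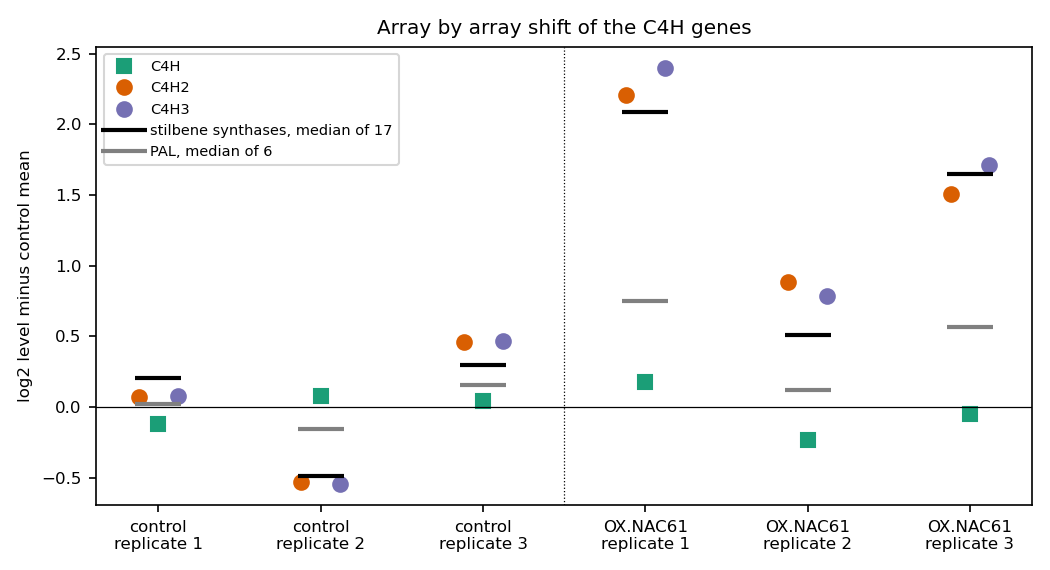
Scaled log2 level minus the mean of the 3 control arrays (y axis, log2 units) on each array for C4H, C4H2 and C4H3, with bars for the median of 17 stilbene synthase and 6 PAL genes. C4H2 and C4H3 follow the stilbene synthase median on every array, lowest on control replicate 2 and highest on OX.NAC61 replicate 1, and C4H does not.

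The features whose level over the 6 arrays was most like that of each gene were taken from 26985 tested features by Pearson correlation. The closest to C4H2 was VIT_09s0096g00800 (r = 0.999, log2 fold change 1.48, limma adjusted p = 0.0987), followed by C4H3 and VIT_02s0236g00010 (r = 0.996). For C4H3 the closest was VIT_07s0031g00570 (r = 0.997, log2 fold change 1.17, limma adjusted p = 0.104), followed by C4H2 and VIT_09s0096g00800 (r = 0.995). C4H2 had 536 features and C4H3 535 at r above 0.9, the other 5 genes between 90 (4CL-3) and 476 (4CL6). With so many features and only 6 arrays high values are found for every gene.

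For C4H the closest features were VIT_05s0077g02070, VIT_00s2085g00010 and VIT_00s0276g00050 (r = 0.988, 0.986 and 0.986), and the closest pathway gene was the 4CL-annotated VIT_02s0025g03660 (r = 0.75). For 4CL-2 they were VIT_17s0000g00070, VIT_11s0052g00610 and VIT_10s0092g00280 (r = 0.996, 0.991 and 0.984), with the lignin branch gene CCR2 (VIT_02s0012g01570, r = 0.79) the closest of the pathway. 4CL-3 was closest to VIT_00s0983g00010, VIT_17s0000g00350 and VIT_18s0001g12710 (r = 0.993, 0.991 and 0.989) and, in the pathway, to CHS2 (r = 0.88). It was the only gene of the 7 with r above 0.8 for both chalcone synthase genes. 4CL13 was closest to VIT_09s0002g04600, VIT_06s0004g07440 and VIT_09s0002g01000 (r = 0.993, 0.992 and 0.991), and 4CL6 to VIT_02s0025g01720, VIT_03s0063g00610 and VIT_19s0015g01910 (r = 0.996, 0.994 and 0.993). Each of these 2 ligase genes was the closest pathway gene of the other. With NAC61 the 7 genes correlated at r from -0.25 (C4H) to 0.72 (C4H2), over the same 6 arrays. These values include the difference between the groups, and the OX.NAC61 plants had been picked for high NAC61. On OX.NAC61 replicates 1, 2 and 3 the scaled log2 levels of NAC61 were -1.15, -0.66 and -0.47. NAC61 was thus lowest of its group on replicate 1, where C4H2 and C4H3 were highest. Both genes were higher on replicate 3 than on replicate 2, as NAC61 was. Whether C4H2 or C4H3 follows the level of NAC61 was not tested.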

How the data were processed

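Per the file headers, Agilent software (Feature Extraction 10.5.1.1) produced the deposited intensity values, which hold for each spot a median signal, a local background and a background-subtracted processed signal and which carry no normalisation across arrays. Log2 values were also deposited by the authors for 26157 probes, and their columns have medians of about 9.61 and the rank order of median signal minus background. The submitters' processing notes name limma, with no version.

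Control spots were left out and flagged spots set to missing. The log2 processed signal was scaled by the 75th percentile of each array. Features well above background on at least 3 of 6 arrays were kept, and 27052 were tested two-sided with lmFit and eBayes of limma 3.58.1 (R 4.3.3), with group as the only term (Benjamini-Hochberg over all tested features, adjusted p below 0.1 and fold change above 1.5, as in the study's methods). Within-array pairs were tested by exact permutation over 20 labellings, and the intervals of their differences are t intervals. The number of arrays limits the precision. The labels call the arrays biological replicates of different plants. On simulated data with 200 changed features of 26986, the fit recovered 27% of 2-fold and 75% of 4-fold changes, so a change of such size can go uncalled. That fit made 109 calls, against 1843 in the real data. The adjusted p depends on how many features change, so these rates need not hold for the real fit.

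The 7 genes and the lists were chosen with earlier results of these data known. Of each list, called genes (up to 4, smallest p first) and the gene with the largest change are named, and for each of the 7 genes its 3 closest features and its closest pathway gene. Names come from the study's annotation. Stilbene synthase, PAL and other 4CL-annotated genes were taken in part from its table of detected probes, and lists may be incomplete. Alternatives changed the background correction, scaling, filter, deposited values, blocks, variance model and thresholds, or left out each array. Normexp with quantile normalisation, and deposited values with scan day as a block, were added after seeing the data.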

Additional observations from a re-analysis of the deposited data

How the results depend on the processing

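Of the 7 C4H and 4CL genes 0 were called as reported. The number was 1 after quantile normalisation (C4H2, 1.55), with the deposited values (C4H2, 1.11) and with normexp plus quantile normalisation (C4H2, 1.18, limma adjusted p = 0.0652, chosen after seeing the data). It was 2 after scaling to the median (C4H2 1.55, C4H3 1.65), with features well above background on all 6 arrays (C4H2 1.53, C4H3 1.63) and with eBayes trend and robust (1.53 and 1.63), and 0 to 1 when an array was left out.

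Replicate numbers are shared by the groups, and same-numbered arrays deviated together at r = 0.21, -0.04 and 0.21. These values do not settle whether the numbers pair the plants. With replicate as a block the SE was 0.26 for C4H2 and 0.27 for C4H3, against 0.40 and 0.45 as reported. With the replicate block 2 of the 7 were called (C4H2 1.53, limma adjusted p = 0.0901, and C4H3 1.63, adjusted p = 0.0897), and 1020 of all features (3.77%), with 14 of 17 stilbene synthase genes (4 as reported).

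All features called, 1843 as reported, numbered 0 with normexp, 1157 with deposited values, 589 with the recorded slide as a block, 657 at an adjusted p below 0.05, 13 with scan day as a block, 78 with deposited values and scan day (chosen after seeing the data), and between 71 (control replicate 2 left out) and 3225 (OX.NAC61 replicate 1 left out) in leave-one-out fits. OX.NAC61 replicates 1 and 3 carry the same slide and position on different days, so the slide record may be wrong. The cause of these changes was not tested.

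C4H2 ran from 1.20 to 1.86 and C4H3 from 1.25 to 2.06 with an array left out, and C4H3 was -0.00302 with normexp. Signs turned for C4H with normexp (0.0538), quantile normalisation (0.0401), scan day (0.18), deposited values with scan day (0.33) and with an array left out (-0.14 to 0.0656). They turned for 4CL-3 with an array left out (-0.15 to 0.31), for 4CL13 with scan day (-0.10) or an array left out (-0.0302 to 0.12) and for 4CL6 with scan day (-0.12, or -0.0578 with deposited values). No setting called a 4CL gene or C4H.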
